A study of Mus musculus with 6 samples.

Results

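The AP-1 and Egr1 immediate early genes were described here as a set of 8 members, *Fos*, *Fosb*, *Fosl2*, *Jun*, *Junb*, *Jund*, *Atf3* and *Egr1*, taken by symbol from the gene lists of all 6 single-cell RNA sequencing (scRNA-seq) libraries. They were 8 of 31053 genes listed in prep 1 and 8 of 27998 listed in prep 3. Prep 1 was cerebral cortex of 3-week-old mice and prep 3 was hippocampus of 5-week-old mice, and all mice were female, wild-type C57Bl/6J. In each preparation tissue from 3 mice was digested for 10 min at 37 °C with dispase II, papain and DNase I. Myelin was removed on Percoll, and the cells of the 3 mice were pooled into 1 suspension, which was sequenced as 3 technical replicates without enrichment or sorting. There was thus 1 biological sample per condition, no test was possible, and every SD below is the spread over technical replicates. Region, age, preparation day and gene annotation changed together between the preparations and cannot be told apart.

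AP-1 is a family of transcription factors in which a Fos family protein pairs with a Jun family protein through a leucine zipper. Growth factors, depolarisation, inflammatory signals and stress, including that of tissue dissociation, can switch these genes on within minutes without new protein synthesis. MAP kinases acting on SRF, Elk and CREB proteins bound at the promoters are the best known route. *Fos*, *Fosb* and *Egr1*, which encodes a zinc finger factor, give short-lived transcripts. *Jund* is transcribed steadily in many cell types, *Fosl2* encodes Fra-2, and *Atf3* encodes a stress-induced bZIP protein that can act as a repressor.

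In the GENCODE M21 annotation of mouse build GRCm38 (mm10), *Fos* lies at chr12:85473890-85477273 on the plus strand, *Fosb* at chr7:19302696-19310051 on the minus strand and *Fosl2* at chr5:32135801-32157842 on the plus strand. *Jun* lies at chr4:95049034-95052222 (minus strand), *Junb* at chr8:84974484-84978718 (minus strand) and *Jund* at chr8:70698949-70700616 (plus strand). *Atf3* spans chr1:191170296-191218039 on the minus strand, and the position of *Egr1* is given with its levels. All 8 are protein-coding. Exons of *Jun*, *Junb* and *Jund* overlap an antisense gene (*Junos*, *Prdx2* and *Gm11175*, respectively), and the strand setting of the counting was not given in the sources used here.

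The promoters of *Fos*, *Fosb* and *Atf3* are shown as examples. Other members, such as *Fosl2* and *Egr1*, also differed in level between the cell classes or preparations described below. Upstream sequence was matched for 7 of the 8 members in the RefSeq promoter table (GRCm38.p6), and *Egr1* had no entry. Each line gives the stretch that ends at the base before the RefSeq transcription start, read 5′ to 3′ on the gene's own strand. The RefSeq start of *Fos* and *Jun* was the GENCODE 5′ end, and those of *Fosb* and *Junb* lay 6 and 30 bases from it. For *Atf3* it was an internal start, 34706 bases inside the GENCODE span, for *Fosl2* it lay 671 bases inside, and for *Jund* 1210 bases upstream. Capitals mark the CRE half-site bound by CREB and ATF proteins (on the other strand in *Atf3*), the TATA box and the Egr1 site, whose letters are spelled out after the sequences. The stretches are chr12:85473740-85473889 (plus strand) for *Fos*, chr7:19310046-19310195 (minus strand) for *Fosb* and chr1:191183334-191183483 (minus strand) for *Atf3*.
Fos: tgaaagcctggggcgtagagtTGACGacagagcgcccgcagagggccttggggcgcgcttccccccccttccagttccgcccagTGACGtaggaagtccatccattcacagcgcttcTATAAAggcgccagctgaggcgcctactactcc
Fosb: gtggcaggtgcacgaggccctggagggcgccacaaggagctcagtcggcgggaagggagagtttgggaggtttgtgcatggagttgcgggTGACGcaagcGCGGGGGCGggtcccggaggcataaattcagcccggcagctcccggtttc
Atf3: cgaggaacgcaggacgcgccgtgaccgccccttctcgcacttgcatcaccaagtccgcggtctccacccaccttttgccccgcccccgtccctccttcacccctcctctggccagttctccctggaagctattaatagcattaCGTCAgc

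The 250 bases before each RefSeq start were searched on both strands for 6 letter patterns. They were the full CRE TGACGTCA, the half-site TGACG contained in it, and the AP-1 site with the letters TGACTCA. The others were the TATA box with the letters TATAAA, the Egr1 site GCGGGGGCG and the CArG box bound by SRF. Every full CRE also counts as a half-site. Counted back from the start, *Fos* held the half-site at −129 to −125 and again at −66 to −62, and the TATA box at −33 to −28. *Fosb* held the half-site at −60 to −56 and the Egr1 site at −50 to −42, and *Fosl2* held the Egr1 site at −79 to −71. *Junb* held the half-site at −106 to −102, *Atf3* held it on the reverse strand at −7 to −3, and no pattern was found in the window of *Jun* or in that of *Jund*, which does not reach the GENCODE start. Of 32851 RefSeq promoters searched in the same way, 17.8% held the half-site, 12.4% the TATA box, 4.46% the AP-1 site, 2.57% the Egr1 site, 1.55% the full CRE and 1.47% a CArG box. Only the given patterns were counted, so sites with other letters or further upstream were not found by this search. These matches describe the letters of the windows, and binding was not measured.

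After filtering, 13320 cells of prep 1 and 14210 cells of prep 3 were kept from libraries of 39662203 to 50024850 unique molecular identifiers (UMIs), with medians of 5800 to 6914 UMIs per kept cell. Cells were clustered without the members and without other immediate early and feedback genes, and a cluster was named "X-like" from fixed marker lists. In cortex 9 classes and in hippocampus 11 had at least 20 cells in each library, and 8 of these were in both preparations. Microglia-like cells were the most numerous (6195 and 6058 cells). Astrocyte-like cells (2703) came next in cortex and endothelial-like cells (2139) in hippocampus, before endothelial-like (2454) and astrocyte-like cells (1986), respectively. Barcodes shared between libraries of a preparation made up 0.458% of the kept cells in cortex and 4.83% in hippocampus. In hippocampus they were 61.9% of the epithelial-like, 23.3% of the macrophage-like and 19.4% of the ependymal-like cells, and under 1% of the microglia-like and endothelial-like cells. Leaving them out changed none of the counts and medians given below for the 3 largest classes by more than the spread between replicates.

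Across the classes with at least 20 cells in each library the members had 2 kinds of distribution. Levels are given as counts per 1000000 UMIs of the same cells (CPM), and they were compared within a gene only. By mean, *Jun*, *Junb*, *Jund* and *Egr1* were highest in microglia-like cells of both preparations, without overlap with the next class. By mean, *Fos*, *Fosb*, *Fosl2* and *Atf3* were highest in macrophage-like cells of both. For these, the macrophage-like libraries overlapped those of the next class for every member in cortex and for *Atf3* in hippocampus. Vascular smooth muscle (VSMC)-like cells came next for several members, and astrocyte-like cells and the epithelial-like cells of hippocampus were in the lower part of the order for every member.

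*Fos*, the prototype of the family, was at 893, 891 and 851 CPM in the 3 cortical libraries of microglia-like cells (mean 878 ± 23.8, SD, n = 3 technical replicates). In hippocampal microglia-like cells it was at 1039, 1017 and 965 CPM (1007 ± 38.1). All hippocampal libraries lay above all cortical ones. In macrophage-like cells, *Fos* was at 752, 2233 and 2384 CPM in cortex and 1470, 1385 and 1259 CPM in hippocampus. The first cortical library stood low there and rested on 28 cells, and the order of macrophage-like and microglia-like cells in cortex was within this spread. In VSMC-like cells *Fos* was at 903, 647 and 503 CPM in cortex and 725, 794 and 822 CPM in hippocampus, which lay below every microglia-like library in hippocampus but overlapped them in cortex.

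The other classes described by library had less *Fos*. Endothelial-like cells were at 44.2, 36.8 and 50.6 CPM in cortex and 133, 146 and 176 CPM in hippocampus, without overlap. Pericyte-like cells were at 36.6, 63.5 and 28.6 CPM in cortex and 197, 169 and 138 CPM in hippocampus, again without overlap. Astrocyte-like cells were at 32.7, 43.1 and 39.4 CPM in cortex and 44.7, 48.0 and 62.2 CPM in hippocampus. The ranges of these 3 classes overlapped in cortex, and in hippocampus endothelial-like and pericyte-like cells stood above astrocyte-like cells. The astrocyte-like levels rested in part on the 3.81% and 6.29% of those cells that carried 2 or more microglia markers. Without them *Fos* in astrocyte-like cells was at 21.0 CPM in cortex and 23.0 CPM in hippocampus. This was below the 38.2 and 113 CPM of endothelial-like cells counted in the same way. *Egr1* in astrocyte-like cells was then at 3.67 and 5.91 CPM in place of 19.9 and 28.1 CPM. Epithelial-like cells of hippocampus were lowest, at 24.7, 24.7 and 28.7 CPM, and overlapped the oligodendrocyte-like cells.

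**Figure D1:**
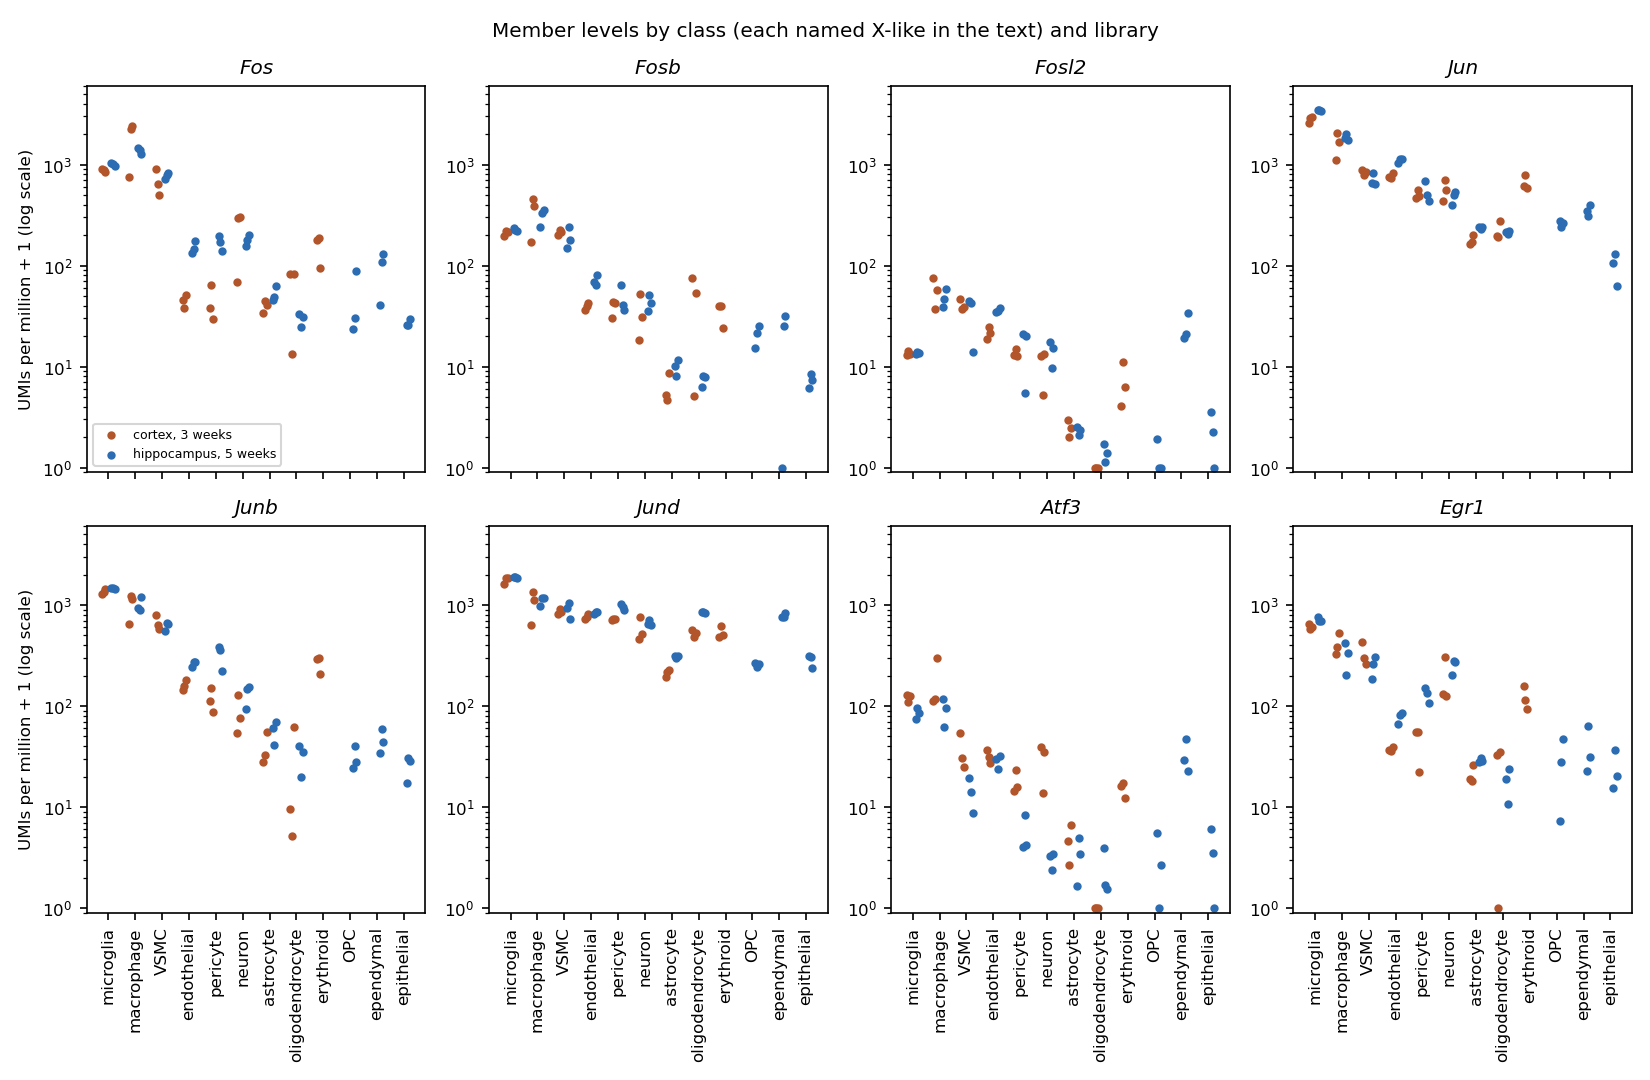
Level of each of the 8 members (CPM + 1, log axis) in each class, with 1 point per library and colours for the preparations. Among these classes, each with at least 20 cells per library, *Jun*, *Junb*, *Jund* and *Egr1* have their highest mean in microglia-like cells. *Fos*, *Fosb*, *Fosl2* and *Atf3* have theirs in macrophage-like cells, which overlap the next class for each in cortex and for *Atf3* in hippocampus. Astrocyte-like cells lie near the low end of every panel.

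*Fosb*, a close relative of *Fos*, followed a similar order, with 196, 219 and 212 CPM in cortical and 232, 224 and 220 CPM in hippocampal microglia-like cells. VSMC-like cells overlapped them in both preparations (201 to 222 CPM in cortex, 149 to 242 CPM in hippocampus). *Fosb* in astrocyte-like cells reached only 3.68 to 7.56 CPM in cortex and 6.99 to 10.7 CPM in hippocampus, and 1.32 and 1.84 CPM without the cells carrying 2 or more microglia markers. *Fosl2* had a different distribution, with macrophage-like, VSMC-like and endothelial-like cells the highest of the classes described by library. It was at 12.1, 13.3 and 12.3 CPM in cortical and 12.4, 12.8 and 12.5 CPM in hippocampal microglia-like cells. Endothelial-like cells had more, at 17.8, 23.9 and 20.6 CPM in cortex and 33.6, 34.1 and 37.0 CPM in hippocampus, and every endothelial-like library was above every microglia-like one. Pericyte-like cells (means of 12.6 and 14.5 CPM) overlapped the microglia-like cells in both preparations, and ependymal-like cells of hippocampus had a mean of 23.6 CPM.

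*Jun*, the partner with the strongest transactivating role, was at 2608, 2867 and 2931 CPM in cortical and 3450, 3492 and 3411 CPM in hippocampal microglia-like cells. Macrophage-like cells followed at 1115, 2066 and 1681 CPM in cortex and 1835, 2012 and 1750 CPM in hippocampus. No macrophage-like library reached a microglia-like one. *Junb*, which can oppose *Jun* on some targets, was at 1287, 1342 and 1445 CPM in cortical and 1488, 1465 and 1449 CPM in hippocampal microglia-like cells. In endothelial-like cells *Junb* was at 143, 156 and 178 CPM in cortex and 242, 272 and 271 CPM in hippocampus.

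*Jund* was the most evenly spread of the Jun family. It was at 1597, 1831 and 1869 CPM in cortical and 1912, 1886 and 1834 CPM in hippocampal microglia-like cells, and these ranges overlapped. In oligodendrocyte-like cells it was at 565, 479 and 527 CPM in cortex and 861, 845 and 836 CPM in hippocampus. In hippocampus those cells were among the lowest for *Fos*, *Junb* and *Egr1*, yet their *Jund* overlapped that of the VSMC-like and endothelial-like cells. Ependymal-like cells had the same combination, with *Jund* at 752, 758 and 835 CPM and *Junb* at 33.1, 58.2 and 43.4 CPM.

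*Atf3* was at 126, 110 and 125 CPM in cortical and 74.1, 93.9 and 83.5 CPM in hippocampal microglia-like cells, without overlap. Macrophage-like cells were at 110, 116 and 295 CPM and at 117, 60.4 and 94.1 CPM, and overlapped the microglia-like cells in both preparations. In cortex, endothelial-like cells (36.0, 30.6 and 26.4 CPM) and VSMC-like cells (52.7, 29.4 and 23.7 CPM) overlapped, and both lay below microglia-like cells. No *Atf3* or *Fosl2* UMI was found in the 67 oligodendrocyte-like cells of cortex, which allows a level of up to 2.77 CPM (exact 95% Poisson limit).

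*Egr1* (chr18:34859823-34864984, plus strand) was at 654, 572 and 608 CPM in cortical and 762, 693 and 696 CPM in hippocampal microglia-like cells. In neuron-like cells *Egr1* was at 131, 302 and 124 CPM in cortex and 200, 275 and 270 CPM in hippocampus. The hippocampal neuron-like values overlapped those of VSMC-like and macrophage-like cells and lay above all endothelial-like libraries (65.6, 80.4 and 85.1 CPM). Most hippocampal neuron-like cells were in a cluster of 378 cells with *Igfbpl1*, *Neurod1* and *Sox11* among its leading genes, where *Egr1* was at 299 CPM, against 61.8 CPM in a cluster of 82 cells led by *Reln*.

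The class of oligodendrocyte precursor (OPC)-like cells of hippocampus was made up of clusters with different leading genes, which differed in *Fos*. *Fos* was at 22.5, 29.1 and 88.2 CPM in the 3 libraries, with the last standing high. Within the class *Fos* was at 8.4 CPM in a cluster of 141 cells with *Gpr17* and *Bmp4* among its leading genes, and at 215 CPM in a cluster of 76 cells led by *Pdgfra*. These clusters met 8 and 11 of the 11 OPC markers, so the difference is not read as spread among precursors. *Jun* (180 and 607 CPM), *Jund* (181 and 579 CPM) and *Egr1* (4.84 and 127 CPM) differed in the same direction. The clusters had medians of 23571 and 8758 UMIs per cell, and the part of this depth gap in the result was not tested.

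Smaller classes were pooled over libraries. *Jund* reached 1981 CPM (exact Poisson 95% interval 1740 to 2247) in 27 B-like cells and *Junb* reached 1463 CPM in 22 T/NK-like cells of cortex. In 58 monocyte/neutrophil-like cells of cortex, *Fos* was at 1274 CPM and *Fosl2* at 128 CPM, the highest *Fosl2* level of any named class. These intervals and all others cover counting error only.

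Barcodes with fewer than 250 genes were left out of the classes and are described on their own. In cortex they numbered 3862 and 92.5% of their UMIs were globin. *Fos* and *Egr1* had 20 UMIs each in them (0.985 CPM, 0.518% of barcodes), *Jun* had 65 and *Fosl2* none. *Jund* was different, with 1523 UMIs, 75.0 CPM and 20.6% of these barcodes. There were thus more *Jund* than *Jun* UMIs in them and fewer in microglia-like cells of the same suspension. Within cortex the order also differed between classes, with more *Jund* than *Jun* UMIs in pericyte-like and oligodendrocyte-like cells and fewer in macrophage-like cells. The source of the UMIs in these barcodes was not tested. In the 353 such barcodes of hippocampus (64.6% globin), *Fos* was at 6.31 CPM and *Jund* at 63.1 CPM. These levels were diluted by globin, and more so in cortex. With globin UMIs left out of the total, *Jund* was at 994 CPM in the cortical and 178 CPM in the hippocampal barcodes. *Fos* was then at 13.1 CPM in the cortical and 17.8 CPM in the hippocampal ones.

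The preparations were then compared within each class by log2 of hippocampus over cortex, computed on CPM + 5, which understates the change of low genes. A member was counted as past the fold at a log2 ratio of 1 or more in size. The error given is the SD of the difference between single libraries. In microglia-like cells none of the 8 members was past the fold, against a background of 0.679% of 8247 genes higher and 1.09% lower in hippocampus. Their log2 ratios ran from −0.49 ± 0.20 for *Atf3* to 0.30 ± 0.09 for *Jun*, with *Fos* at 0.20 ± 0.07 and *Egr1* at 0.23 ± 0.12. All genes tested had a median log2 ratio of 0.07. Libraries of the preparations did not overlap for *Fos*, *Fosb*, *Jun*, *Junb*, *Atf3* and *Egr1*, and they overlapped for *Fosl2* and *Jund*. The share of all genes without overlap is not given here, so this is not read as a trait of the members.

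In endothelial-like cells *Fos* was past the fold, at 1.68 ± 0.29, against 2.06% of 8695 genes higher and 1.12% lower. *Egr1* followed at 0.99 ± 0.19, *Fosb* at 0.78 ± 0.20, *Junb* at 0.70 ± 0.18, *Fosl2* at 0.63 ± 0.18 and *Jun* at 0.52 ± 0.12. *Jund* was at 0.15 ± 0.08 and *Atf3* at −0.16 ± 0.28, where all genes tested had a median of 0.12. The 3 hippocampal libraries were above all cortical ones for 7 members, and *Atf3* overlapped. The share of all genes that did so is not given here, so the count is not read as a trait of the members.

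The size of this *Fos* difference depended on which endothelial-like cells were counted. Hippocampal endothelial-like cells fell into a cluster of 1691 cells with *Fos* at 91.2 CPM, a cluster of 272 cells with *Fos* at 631 CPM, and a cluster of 176 cells with arterial genes such as *Gkn3* and *Bmx* among its leading genes and *Fos* at 329 CPM. The cluster of 272 cells had a median of 1474 UMIs per cell, and 25% of it was called as doublets. In the largest endothelial cluster of each preparation *Fos* was at 42.9 CPM in cortex and 91.2 CPM in hippocampus, a log2 ratio of 1.01, and *Egr1* was at 0.43. The class was also put together differently in the preparations. A cortical cluster led by *Gkn3* and *Bmx* (240 cells) stayed unnamed by the marker rule, because *Stmn2* was among its leading genes. A cortical cluster of 390 cells that shared *Cgnl1* and *Fn1* with the hippocampal cluster of 272 cells (median 1258.5 UMIs, 22.3% doublets, *Fos* at 304 CPM) stayed unnamed for lack of markers. With both added to the cortical class, *Fos* was at 67.1 CPM in cortex against 151 CPM in hippocampus, a log2 ratio of 1.12, and *Egr1* was at 0.65. The summed level of 12 microglia markers in endothelial-like cells was 204 to 582 CPM in cortical and 892 to 1288 CPM in hippocampal libraries, with no marker at 0. Leaving out the 2.12% and 4.53% of endothelial-like cells with 2 or more of those markers gave *Fos* at 38.2 and 113 CPM, a log2 ratio of 1.45, and *Egr1* at 0.67. What remained of the microglia markers in the other cells was not removed, and its part in the result was not tested.

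Pericyte-like cells had 4 members past the fold, against 6.14% of 9561 genes higher and 8.43% lower. *Fos* was at 1.84 ± 0.58, *Egr1* at 1.48 ± 0.73 and *Junb* at 1.41 ± 0.57. *Egr1* had levels of 54.9, 54.8 and 21.2 CPM in cortex and 151, 133 and 107 CPM in hippocampus, and *Junb* had 112, 150 and 87.2 CPM against 382, 357 and 221 CPM. Neither overlapped. *Atf3* went the other way, from 13.5, 22.1 and 14.7 CPM to 3.06, 7.37 and 3.18 CPM, a log2 ratio of −1.20 ± 0.46. Microglia markers summed to 352 to 575 CPM in cortical and 1416 to 2386 CPM in hippocampal pericyte-like libraries. Without cells carrying 2 or more of them, *Fos* was at 1.52, *Egr1* at 1.26, *Junb* at 1.16 and *Atf3* at −1.49.

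The pericyte-like classes also differed in endothelial RNA. The 12 endothelial markers summed to 13733 to 15349 CPM in cortical and 819 to 899 CPM in hippocampal pericyte-like libraries. In cortex 203 of the 374 pericyte-like cells fell, with the members among the variable genes, in a cluster with all 12 of those markers, whereas the hippocampal cluster of this kind (177 cells) stayed unnamed. Without the 203 cells *Fos* was at 1.35 and *Junb* at 1.25, and *Egr1* (0.88) and *Atf3* (−0.15, on 4 and 9 UMIs) were no longer past the fold. With the 177 cells added instead, *Fos* was at 1.75, *Egr1* at 1.22 and *Junb* at 1.18, and *Atf3* was at −0.32. The higher *Fos* and *Junb* of hippocampus thus held in both, and the lower *Atf3* held past the fold in neither. Cells with microglia markers were not left out in either, and the part of microglia RNA in these values was not tested.

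VSMC-like cells had 1 member past the fold, *Atf3* at −1.14 ± 0.68, against 1.18% of 8461 genes higher and 3.17% lower. Its libraries were at 52.7, 29.4 and 23.7 CPM in cortex and 18.4, 13.1 and 7.73 CPM in hippocampus, without overlap, while *Fos* overlapped. Astrocyte-like cells had none past the fold (1.61% of 8953 genes higher, 1.66% lower), with members from −0.22 for *Atf3* to 0.54 for *Junb*. Without those carrying 2 or more microglia markers, *Fos* was at 0.11 in place of 0.38 and *Junb* at 0.55. At a mitochondrial limit of 10% the signs of *Fos* (−0.05), *Junb* (−0.09) and *Egr1* (−0.19) in astrocyte-like cells turned. Macrophage-like cells had none past the fold either (7.78% of 8514 genes higher, 2.27% lower). Their make-up differed, since 194 of the 344 hippocampal ones fell, with the members among the variable genes, in a cluster led by *Cd74*, *Nkg7* and *Plac8*, and cortex had separate monocyte/neutrophil-like, T/NK-like and B-like cells. With the macrophage-like cells of that clustering (169 and 147 cells) *Jun* was past the fold at 1.15, and *Fos* (0.20 in place of −0.44) and *Fosb* (0.64 in place of −0.25) changed sign.

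Oligodendrocyte-like cells had *Fosb* past the fold, at −2.07 ± 1.69, against 2.98% of 8425 genes higher and 9.38% lower. Its cortical libraries were at 74.3, 4.15 and 52.7 CPM and its hippocampal ones at 5.33, 6.99 and 6.84 CPM, so the groups overlapped. *Jund* was at 0.69 ± 0.12 there and did not overlap. In neuron-like cells *Atf3* was past the fold, at −2.36 ± 0.71, against 13.6% of 10480 genes higher and 10.4% lower. It was at 37.9, 12.8 and 33.7 CPM in cortex and 2.28, 1.37 and 2.40 CPM in hippocampus. Different clusters made up the class: a single cluster in cortex and 3 clusters in hippocampus. The cortical cluster and the largest hippocampal one (378 cells) both had *Igfbpl1*, *Top2a* and *Mki67* among their leading genes. Endothelial markers summed to 3771 to 6036 CPM in cortical and 55.8 to 272 CPM in hippocampal neuron-like libraries, and their part in the *Atf3* result was not tested.

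*Atf3* therefore had a log2 ratio below 0 in all 7 classes in which both preparations had an *Atf3* UMI, whereas *Fos* was above 0 in microglia-like, endothelial-like, pericyte-like, VSMC-like and astrocyte-like cells and below 0 in macrophage-like (−0.44 ± 0.94), oligodendrocyte-like (−0.87 ± 1.35) and neuron-like cells (−0.36 ± 1.21), where its libraries overlapped. The libraries of *Atf3* did not overlap in microglia-like, pericyte-like, VSMC-like and neuron-like cells and overlapped in the other 3. The classes come from the same 6 libraries and are not independent of each other. How many other genes did the same is not given here, so neither count is read as a trait of *Atf3*. In astrocyte-like cells *Atf3* (3.57 and 2.34 CPM) was too low to be among the genes tested. In pericyte-like cells it was no longer past the fold in either check of the make-up given above. The part of endothelial RNA in the neuron-like value was not tested. With cells carrying 2 or more microglia markers left out, *Atf3* in astrocyte-like cells was at 0.662 CPM in cortex and 0.959 CPM in hippocampus, so that its sign there turned. It also turned with called doublets left out (0.308 and 0.711 CPM).

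**Figure D2:**
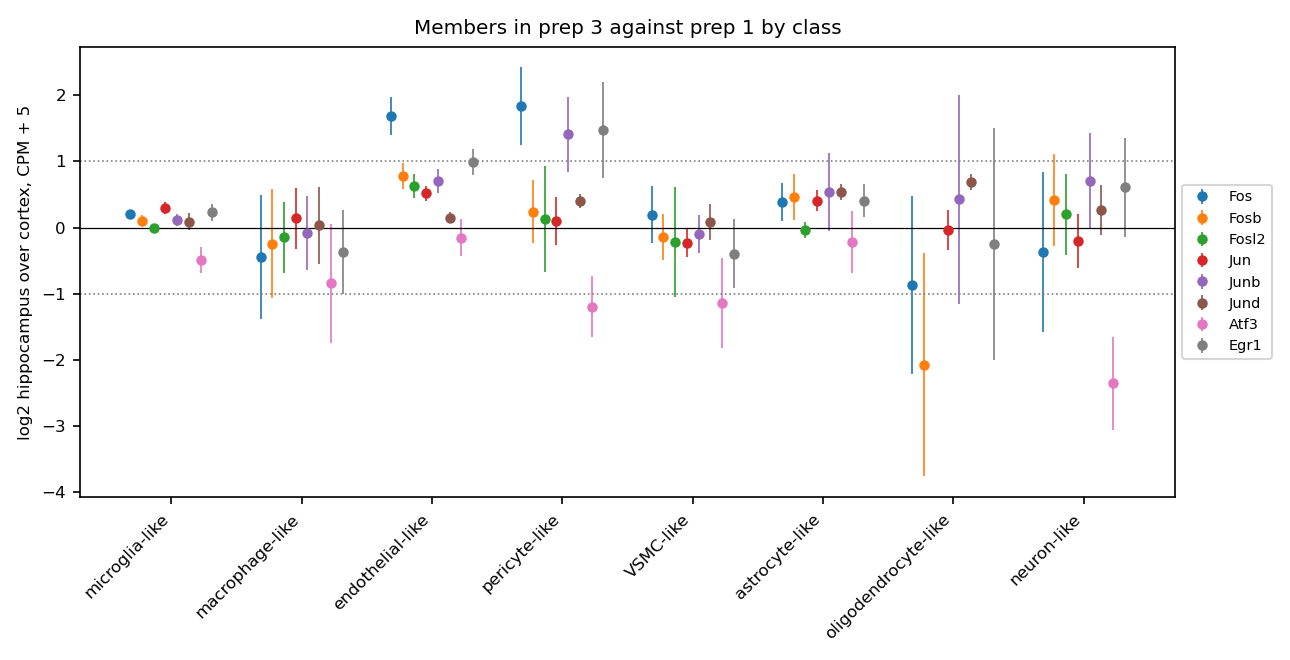
Log2 ratio of hippocampus (prep 3) over cortex (prep 1) on CPM + 5 for each member in the 8 classes present in both preparations, with bars for the SD of the difference between single libraries (3 technical replicates each) and dotted lines at a fold of 2. *Fos* is above the upper line in endothelial-like and pericyte-like cells, and *Atf3* is below the lower line in pericyte-like cells as named, VSMC-like and neuron-like cells; *Fosl2* and *Atf3* of oligodendrocyte-like cells had no cortical UMI and are not drawn.

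Genes around the members were read from fixed lists over the same ratios. In microglia-like cells 0 of 13 other immediate early genes tested, 0 of 9 other AP-1 genes, 0 of 9 feedback genes and 0 of 16 upstream kinases and factors were past the fold. In endothelial-like cells 2 of 17 other immediate early genes were higher in hippocampus, the nuclear receptors *Nr4a1* (16 and 39.1 CPM, log2 ratio 1.07) and *Nr4a2* (11.4 and 31.4 CPM, 1.15). None of 11 feedback genes was past the fold there. With the 2 unnamed cortical clusters added, *Nr4a1* was at 0.85 and *Nr4a2* at 0.69, and none of the 17 was past the fold.

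Pericyte-like cells differed from this. While *Fos*, *Junb* and *Egr1* were higher in hippocampus, 6 of 17 other immediate early genes were lower and none was higher, with a median log2 ratio of −0.65 against 0.14 for all genes tested. They were the Krüppel-like factors *Klf2* (1208 and 49.0 CPM), *Klf4* (319 and 20.4 CPM), *Klf6* (260 and 104 CPM) and *Klf10* (23.1 and 4.59 CPM), the kinase gene *Sgk1* (181 and 61.7 CPM) and *Maff* (16.8 and 1.02 CPM), a small Maf gene. *Spry1* (91.8 and 207 CPM), an inhibitor of receptor tyrosine kinase signalling, was higher in hippocampus. *Rps6ka3* (66.0 and 16.3 CPM) and *Mkl2* (94.9 and 24.0 CPM), a kinase and an SRF coactivator, were lower. Most of this did not hold with the make-up matched. Without the 203 cortical cells in the cluster with endothelial markers, 1 of 13 other immediate early genes was lower, *Klf2* (124 and 49.0 CPM), with a median of 0.05 against 0.08 for all genes tested. With the 177 hippocampal cells added instead, 1 of 17 was lower, *Sgk1* (181 and 85.0 CPM). *Klf2* was at 2084 CPM in endothelial-like cells of cortex.

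Neuron-like cells had *Klf2* (672 and 28.7 CPM), *Klf4* (147 and 11.9 CPM), *Klf6* (176 and 47.7 CPM), *Klf10*, *Ier3*, *Myc* and *Cyr61* lower and *Ier5* higher, which was 7 lower and 1 higher of 15, beside the difference in endothelial markers given above. *Egr3* was lower among their Egr genes (10.5 and 0.178 CPM). In the same cells the phosphatase genes *Dusp1* and *Dusp2* and the mRNA decay genes *Zfp36l1* and *Zfp36l2* were lower and *Dusp4* was higher among 12 feedback genes. In VSMC-like cells *Nr4a1* (112 and 41.3 CPM), *Nr4a2* and *Nr4a3* were lower and *Ier5l* was higher among 15, and *Spry1* and *Gadd45b* were lower among 11 feedback genes. Macrophage-like cells had *Klf2* (327 and 731 CPM) and *Sgk1* higher among 17, and the phosphatase gene *Dusp5* higher among 11 feedback genes (4.19 and 33.9 CPM). *Dusp2* had no UMI in cortical and 115 CPM in hippocampal macrophage-like cells. With the macrophage-like cells of the other clustering none of these held: *Klf2* was at 607 and 670 CPM, *Sgk1* at 74.5 and 65.3 CPM, *Dusp5* at 50.6 CPM and no UMI, and *Dusp2* at 45.1 CPM and no UMI. Among their AP-1 relatives *Batf3* was lower under both (69.9 and 11.1 CPM, 51.5 and 6.40 CPM). In oligodendrocyte-like cells *Nr4a1* and *Sgk1* (369 and 123 CPM) were lower and *Arc*, a gene known from neuronal activity, was higher (13.5 and 33.9 CPM) among 10. In astrocyte-like cells none of 10 was past the fold. Of all genes tested, 13.6% were higher and 10.4% lower in neuron-like cells, and 1.18% and 3.17% in VSMC-like cells. These shares were 7.78% and 2.27% in macrophage-like and 2.98% and 9.38% in oligodendrocyte-like cells. No list count was tested against them.

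Because detection depends on depth, shares of cells with a member were taken after each cell was thinned to 1000 UMIs, with shallower cells left out. In microglia-like cells *Jun* was found in 84.0% of cells in cortex and 88.9% in hippocampus, *Jund* in 74.1% and 77.9%, and *Junb* in 53.7% and 60.6%. *Fos* was found in 32.9% ± 2.03 and 41.2% ± 0.95 (SD, n = 3 technical replicates). *Egr1* was found in 27.9% and 35.1%, *Fosb* in 14.5% and 16.4%, *Atf3* in 6.44% and 5.70%, and *Fosl2* in 1.31% and 0.983%. A Jun family member was therefore present in most microglia-like cells at this depth, and *Fos* in a minority.

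In endothelial-like cells *Jund* was found in 48.2% of cortical and 44.5% of hippocampal cells and *Jun* in 43.9% and 49.0%. *Fos* was found in 2.69% and 7.61%, and *Egr1* in 2.45% and 4.29%. *Junb* did not follow its level, with 12.8% of endothelial-like cells in both preparations. Astrocyte-like cells had *Jund* in 16.7% and 22.5%, *Jun* in 10% and 13% and *Fos* in 2.59% and 3.39%. Before thinning *Fos* was found in 10.6% and 11.9% of astrocyte-like cells. No class here is known to lack *Fos*, and the globin-rich barcodes, with medians of 4934.5 and 1395 UMIs, held it in 0.518% and 1.98% of barcodes. VSMC-like cells stood apart from the other vascular classes, with *Fos* in 33.0% and 42.7%.

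Cells with 3 or more of the 8 members at 1000 UMIs were counted and set beside the share that independent detection of the members within a library and class would give. In microglia-like cells 59.7% ± 0.17 of cortical and 69.6% ± 0.97 of hippocampal cells had 3 or more, below the 65.8% and 76.4% of independence. Cells with no member were also more frequent than independence gives, at 3.69% against 0.733% and 3.22% against 0.289%. So were cells with 5 or more members, at 913 against 453 in cortex and 1259 against 737 in hippocampus. Members were thus spread over microglia-like cells more unevenly than independent detection, at both ends. With independence taken within each cluster, the expected shares with 3 or more were 63.8% and 74.7%. Cells with none had lower medians before thinning (4550.5 and 4398 UMIs) than cells with 3 or more (5540.5 and 6680.5 UMIs), and the part of this in the result was not tested.

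In macrophage-like cells the share with 3 or more was 43.0% in cortex and 39.5% in hippocampus, near the 42.4% and 37.8% of independence. The ends were nevertheless heavier, since 30.1% and 25.6% of macrophage-like cells had no member against 6.41% and 6.21%. In addition, 19 and 27 cells had 5 or more against 4.2 and 5.23. Macrophage-like cells with no member had medians of 2194.5 and 2094 UMIs, against 9795.5 and 7115.5 UMIs with 3 or more. The hippocampal class also took in the 194 cells of the *Cd74*, *Nkg7* and *Plac8* cluster given above (cluster median 774 UMIs). The part of depth and make-up in the result was not tested. In VSMC-like cells the share with 3 or more was 40.9% and 37.1% (34.7% and 35.1% of independence). Endothelial-like cells had 8.48% ± 1.39 and 12.8% ± 0.59 (5.84% and 9.15%), and pericyte-like cells had 5.34% and 14.3% (2.86% and 5.83%). Neuron-like cells had 11% and 11.8%, erythroid-like cells of cortex 14.7%, OPC-like cells 4.63%, ependymal-like cells 3.79% and epithelial-like cells 0.629%.

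In astrocyte-like cells 25 of 2546 cortical cells (0.982%) and 45 of 1857 hippocampal cells (2.42%) had 3 or more members, against 0.129% and 0.331% under independence. Doublets were called for 84.0% and 68.9% of these cells and for 2.04% and 0.884% of astrocyte-like cells without a member. With the cells that carried 2 or more microglia markers left out, 2 of 2447 (0.0817%) and 9 of 1738 (0.518%) remained. Erythroid-like cells of cortex were alike in the microglia markers but not in the doublets. Doublets were called for 0% of their 47 cells with 3 or more members and for 7.33% of those with none. Of all erythroid-like cells 38.8% carried 2 or more microglia markers, and without those the share fell from 14.7% to 1.54% (3 cells). In endothelial-like cells the share was 8% and 11.6% without such cells, and in VSMC-like cells 40.0% and 36.5%.

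**Figure D3:**
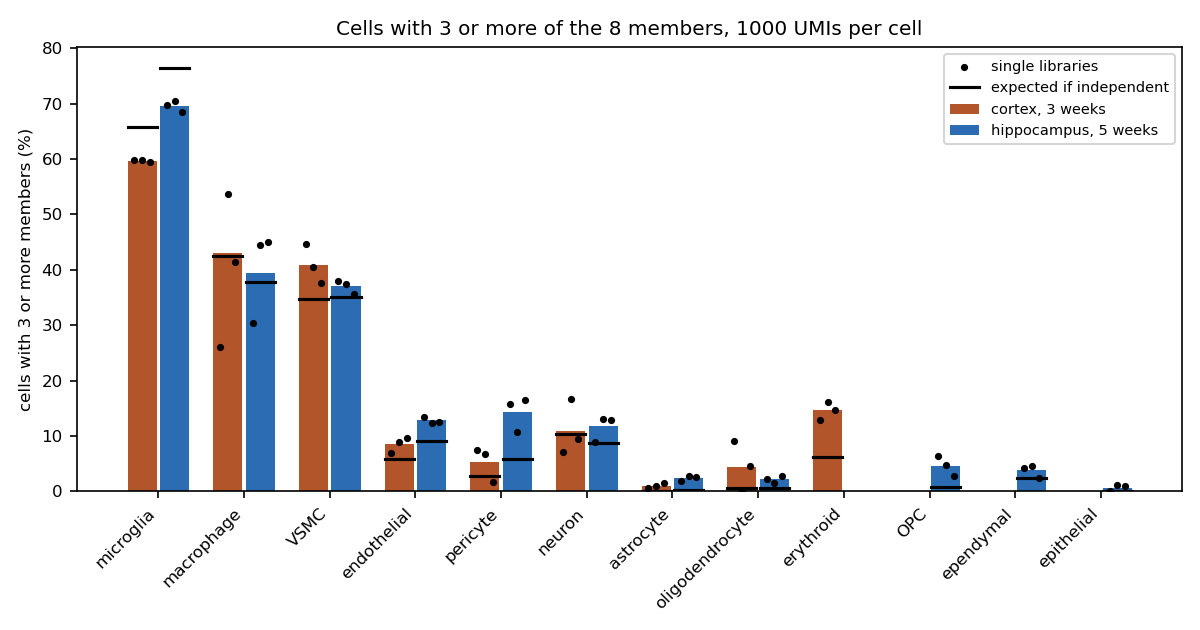
Share of cells (%) with 3 or more of the 8 members at 1000 UMIs per cell in each class and preparation, with points for single libraries and a black mark at the share that independent detection would give. Microglia-like cells are highest at 59.7% and 69.6% and lie below their independent share, and endothelial-like and pericyte-like cells lie above theirs. The mark alone does not show that members avoid each other in microglia-like cells. Those with 5 or more members numbered 913 in cortex against 453 under independence, and 1259 against 737 in hippocampus.

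Pairs of members were compared in the same way, as the number of cells with both over the number expected from each member's share within a library. In microglia-like cells *Fos* and *Egr1* were found together in 927 cortical cells, where 563 were expected (ratio 1.65 ± 0.06), and in 1286 hippocampal cells, where 868 were expected (1.48 ± 0.02). *Fos* with *Fosb* had ratios of 1.54 and 1.38, *Fos* with *Atf3* 1.94 and 1.48, and *Atf3* with *Egr1* 2.22 and 1.82. *Fos* with *Junb* was at 1.26 and 1.21. The rarest pair, *Fosl2* with *Atf3*, was at 3.31 in cortex on 17 cells against 5.13 expected. *Jun* with *Jund*, found in most cells, was at 1.03 and 1.04. The ratio of *Jun* with *Jund* can hardly exceed 1 at such shares, so it cannot be compared with the ratios of the rarer members. Of the pairs with at least 5 expected cells, 26 of 28 in cortex and 27 of 27 in hippocampus had a ratio above 1, and *Fosb* with *Fosl2* was lowest in cortex at 0.78.

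Part of this lay between clusters of the class. With the expected number taken within each cluster, a calculation added after the data were seen, *Fos* with *Egr1* was at 1.44 and 1.38, *Fos* with *Atf3* at 1.47 and 1.26, and *Atf3* with *Egr1* at 1.46 and 1.41. The ratios thus came closer to 1 but stayed above it.

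In endothelial-like cells the pair ratios rested on fewer cells. A ratio can rise higher where members are rarer, so their size is not compared with that of microglia-like cells. *Fos* and *Egr1* were found together in 11 cortical cells against 1.61 expected (6.82) and in 43 hippocampal cells against 6.70 expected (6.42). *Fos* with *Fosb* was at 8.98 (12 cells) and 5.12 (40 cells), *Fos* with *Junb* at 3.09 (26 cells) and 3.51 (70 cells), and *Junb* with *Egr1* at 2.89 and 3.73. *Jun* with *Jund* was again near 1, at 1.12 and 1.21. Doublets were called for 7.69% and 12.5% of endothelial-like cells with 3 or more members and for 2.45% and 2.97% of those with none. Without the hippocampal endothelial-like cells carrying 2 or more microglia markers (4.53%), *Fos* went from 2414 to 1693 UMIs. *Egr1* went from 1227 to 776 UMIs. The part of those cells in each pair ratio is not given here. The median ratio over pairs was 1.37 and 1.55 in endothelial-like, 1.19 and 1.11 in microglia-like and 1.81 and 2.55 in astrocyte-like cells. The median is not comparable between classes, since each class had its own pairs and shares.

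**Figure D4:**
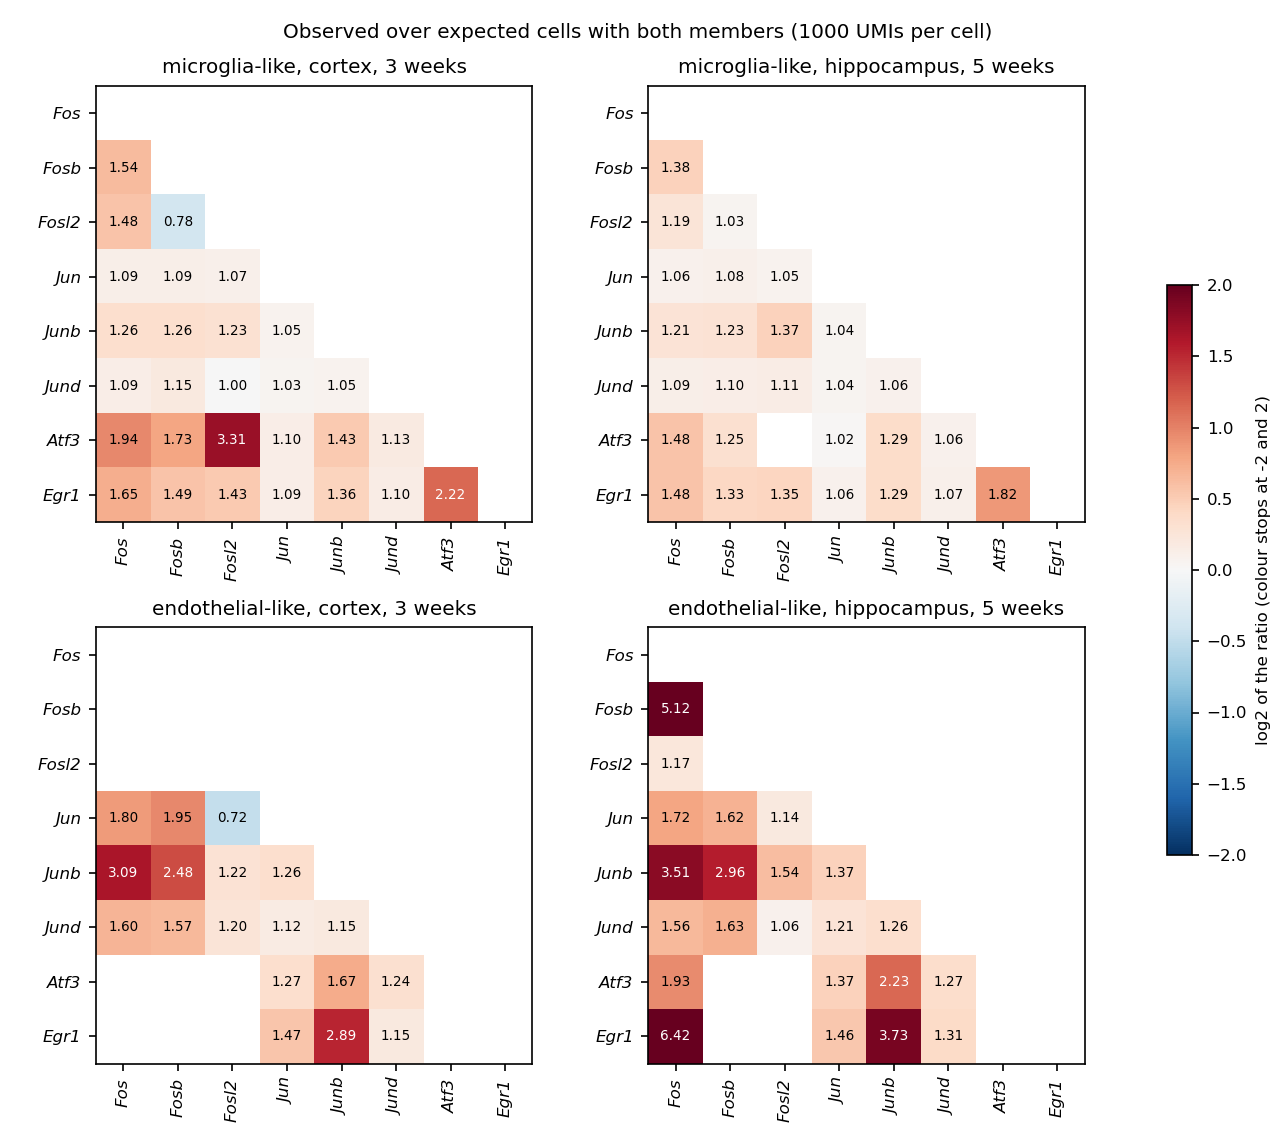
Observed over expected number of cells with both members of each pair at 1000 UMIs per cell in microglia-like and endothelial-like cells of each preparation, with the ratio printed in each square, its log2 as the colour, and pairs with under 5 expected cells left blank. Many pairs among *Fos*, *Fosb*, *Junb*, *Atf3* and *Egr1* have a strong red, up to 6.42 for *Fos* with *Egr1* in hippocampal endothelial-like cells. In cortical microglia-like cells *Fosl2* with *Atf3* is highest, at 3.31. *Jun* with *Jund* is between 1.03 and 1.21 in every panel.

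Microglia-like cells held clusters that differed in the members although none of these had been used for clustering. The clusters were made on other genes of the same cells, such as *Socs3* and *Nfkbiz*, so the differences are a description. In cortex a cluster of 880 cells led by the chemokine genes *Ccl4*, *Ccl3* and *Ccl2* had *Fos* at 2366 CPM, *Junb* at 2937 CPM, *Egr1* at 1593 CPM and *Atf3* at 474 CPM. The largest cortical cluster (2985 cells, led by *P2ry12*) had *Fos* at 492 CPM, *Egr1* at 330 CPM and *Atf3* at 38.5 CPM. *Jun* and *Jund* differed less between them (3953 and 2645 CPM for *Jun*, 2359 and 1696 CPM for *Jund*).

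Hippocampus had a similar cluster of 1452 cells led by *Ccl4* and *Ccl3*, with *Fos* at 1748 CPM, *Egr1* at 1267 CPM and *Atf3* at 217 CPM, and a largest cluster of 2479 cells with 602, 427 and 29.1 CPM. The chemokine-led clusters made up 14.2%, 13.9% and 14.5% of microglia-like cells in the cortical libraries and 24.0%, 25% and 22.8% in the hippocampal ones. The share with 3 or more members was 81.9% and 85.5% in them and 55.8% and 63.0% in the largest clusters. A further cortical cluster of 535 cells had *Fos* at 1339 CPM with *Nfkbiz* and *Socs3* leading and met only 3 of the 12 microglia markers. A hippocampal cluster of 312 cells led by *Socs3* and *Egr1* had *Fos* at 1116 CPM. It met 11 of the 12 markers, and 9.94% of it was called as doublets. The share with 3 or more members was 55.9% in the cluster of 535 cells and 59.0% in that of 312 cells. Interferon-led clusters (135 and 194 cells) had *Fos* at 728 and 883 CPM.

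**Figure D5:**
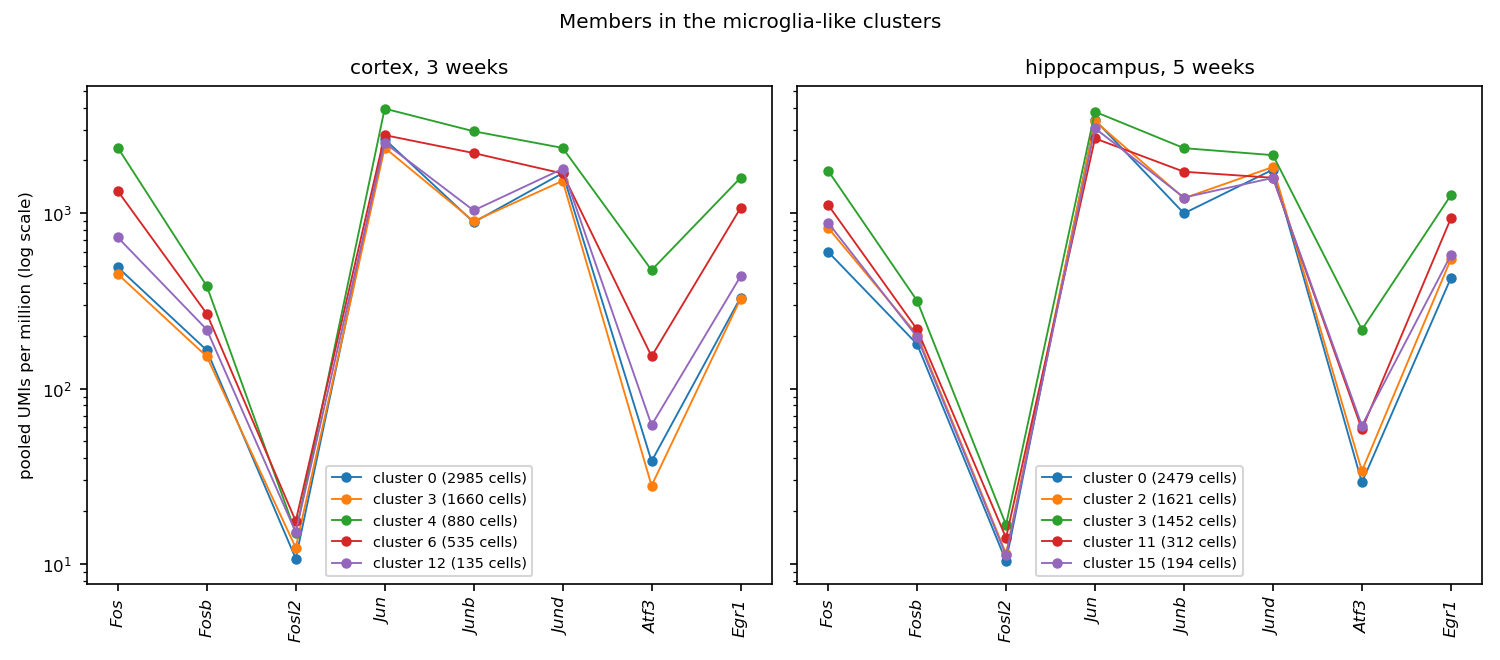
Level of each member (CPM pooled over libraries, log axis) in each microglia-like cluster of cortex and hippocampus, with a line joining the points of a cluster. The chemokine-led clusters (880 and 1452 cells) lie highest for *Fos*, *Junb*, *Atf3* and *Egr1*, and the clusters lie closest together for *Jun*, *Jund* and *Fosl2*.

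Genes outside the members were ranked by how much more often they were found, at 1000 UMIs, in cells with 3 or more members than in cells with none. Microglia-like cells with no member numbered 226 in cortex and 193 in hippocampus, so small shares among them rest on few cells. They also had lower medians before thinning, as given above. *Ier2*, an immediate early gene, was found in 19.6% against 0.885% of microglia-like cells in cortex and 18.6% against 1.04% in hippocampus. *Dusp1*, a MAP kinase phosphatase, was at 21.0% against 3.54% and 15.5% against 2.07%. *Socs3*, a cytokine signalling inhibitor, was at 16.5% against 3.54% and 19.0% against 1.55%, and *Zfp36*, an mRNA decay factor, was at 59.6% against 18.6% and 59.6% against 16.1%. *B930036N10Rik*, *Klf4*, *Hist1h1c* and *Klf6* completed the first 8.

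These were mostly other early-response genes and their inhibitors. Genes were tested only if at least 10% of the cells with 3 or more members had them. Genes rare in those cells could not enter, so the counts do not speak for the lists as a whole. In microglia-like cells this left 8 of 21 other immediate early genes and 5 of 14 feedback genes. Of these, 6 and 2 reached a ratio of 2 in both preparations, where 1.43% of 1258 genes under the same limit did. In endothelial-like cells 0.222% of 1351 genes did so, and 1 of 10 other immediate early genes (*Cyr61*) and 1 of 4 feedback genes (*Zfp36*) were among them. The first there was *Hspa1a*, a heat shock protein gene, at 13% against 1.83% in cortex and 30% against 5.94% in hippocampus. *Ier2*, *Apold1*, *Dusp1*, *Plk2* and *Adamts1* followed, with ratios under 2 in cortex.

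In astrocyte-like cells the first 8 genes were of another kind: *Siglech*, *Selplg*, *Gpr34*, *Olfml3*, *Pou2f2*, *Cx3cr1*, *Rnase4* and *Cd53*, most of them known from microglia. *Cx3cr1* was found in 88.0% of cortical astrocyte-like cells with 3 or more members against 0.751% of those with none, and in 75.6% against 1.37% in hippocampus. The background was high, since 27.3% of 1090 genes reached a ratio of 2.

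Over the 20 class profiles of both preparations, *Fos* was most like *Socs3* among 8426 genes (Pearson r = 0.95), followed by *Plekho1*, *Runx1*, *Nfkbiz* and *Zfp36* (0.90 to 0.91), and its r with *Egr1* was 0.94 and with *Fosb* 0.93. *Egr1* was also most like *Socs3* (0.93), and *Btg2*, *Plekho1* and *Maml3* were among its next neighbours. *Atf3* had other neighbours, *Il6ra* (0.91), *Mapk14*, *Cyba*, *Lyl1* and *Mob1a*, and *Jund* was most like *Capzb* and *Ncoa3* (0.86 each), *Ski*, *Serinc3* and *Mef2a*. These profiles share libraries and suspensions and include the same classes in both preparations, so the correlations are descriptions.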

How the data were processed

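Cells from 3 technical replicates each of prep 1 (cortex) and prep 3 (hippocampus) were analysed by droplet scRNA-seq. The authors deposited UMI counts per gene and barcode made with Cell Ranger on mm10. The labels name version 5.0.1, and the matrix headers name 3.0.1 for cortex and 3.1.0 for hippocampus. From these counts, cells were kept at 250 to 6000 detected genes and a mitochondrial share below 25%. They were log-normalised to 10000, integrated over replicates by CCA (2000 variable genes without the members and listed early genes, 30 components) and clustered at resolution 0.5 in Seurat 5.3.0 (R 4.3.3). Clusters were named from at least 3 markers. Doublets were called with Scrublet in scanpy 1.11.5 at 0.8% per 1000 barcodes and kept, except in an alternative.

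Counts were summed per library and class in Python 3.11.15 and divided by the class total. Cells were thinned with a fixed seed. Genes with 10 CPM in either preparation and listed in both annotations (27514) formed the background. Intervals are exact (95%) and cover counting error only. The scripts were tested on simulated data. No p-value was computed, since each condition was 1 pooled suspension and the replicates were technical.

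All 8 members were named. Listed genes past the fold of 2 were named up to 8 per list, and likeness genes were the first 5 (classes, at least 50 CPM in a class) or 8 (cells, at least 10% of cells with 3 or more members, 0.5 points added to both shares). The members and lists were chosen with earlier results of these data known. Alternatives varied the clustering genes, classing by each cell's own markers, the mitochondrial limit, doublets, shared barcodes, thinning depth, scaling, pseudocount, gene filter, replicates and, after the data were seen, microglia markers and the make-up of classes. A few genes that the naming rules would include are not reported here.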

Additional observations from a re-analysis of the deposited data

How the results depend on the processing

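No paired analysis was possible because the results come from no test and the replicates are technical libraries of 1 suspension. In the 3 largest classes the only member past the fold was *Fos* in endothelial-like cells, and it kept its sign under every alternative run. Members not past the fold could change sign, such as *Fos*, *Junb*, *Egr1* and *Atf3* in astrocyte-like cells (given above). Leaving out shared barcodes moved none of the class shares, medians or counts given here beyond the spread between replicates. Median-of-ratios scaling and scaling by the mean over cells were run for the ratios between preparations only. They moved none of the counts past the fold. For microglia-like cells the share with 3 or more members (59.7% in cortex, 69.6% in hippocampus) was 60.0% and 71.0% with the members among the variable genes. In cortex it was 59.4% with cells classed by their own markers and with doublets left out, and 60.3% at a mitochondrial limit of 10%. It was 33.6% and 43.3% at 500 UMIs, with median pair ratios of 1.28 and 1.24, and 81.0% and 86.3% at 2000 UMIs, with a median of 1.10 in cortex. For endothelial-like cells (8.48% and 12.8%, medians 1.37 and 1.55) own markers gave a cortical median of 1.46 and a hippocampal share of 11.8%. Leaving out doublets gave 11.7% and 1.40 in hippocampus. Thinning to 500 UMIs gave 2.61% and 5.00% with medians of 1.48 and 1.89, and thinning to 2000 gave 20.4% and 26.7% with 1.20 and 1.42. The number of endothelial-like members past the fold was 1 and became 2 with the 10% limit or 1 CPM added, when *Egr1* reached 1.00 and 1.07. For astrocyte-like cells (0.982% and 2.42%, medians 1.81 and 2.55) own markers gave 0.0805% and 0.676% with medians of 0.959 and 1.72, and leaving out doublets gave 0.165% and 0.791% with 0.953 and 2.03. The 10% limit gave 2.74% and 3.62% with a cortical median of 2.21. Members among the variable genes gave a hippocampal median of 2.31. Thinning to 500 UMIs gave medians of 3.84 and 2.75 and a hippocampal share of 1.007%, and thinning to 2000 gave 2.65% and 5.06% with 1.44 and 2.12. With 1 CPM added, 455 genes in place of 293 were past the fold. With the members among the variable genes 1 macrophage-like member (*Jun*) was past the fold in place of 0. Further alternatives were chosen after seeing the data, and those on the make-up of the pericyte-like and endothelial-like classes stand beside their results. Expected numbers within clusters gave a hippocampal astrocyte-like median of 2.19. Leaving out cells with 2 or more microglia markers gave 11.6% in hippocampal endothelial-like cells, 0.0817% and 0.518% in astrocyte-like cells and astrocyte-like medians of 0.954 and 1.70. The largest endothelial cluster gave a cortical median of 1.44, a hippocampal share of 10.9% with a median of 1.39, and 162 genes in place of 276 past the fold. Leaving out each replicate in turn gave medians of 2.42 to 2.66 for astrocyte-like cells of hippocampus, 1.33 to 1.42 for endothelial-like cells of cortex and 1.10 to 1.20 for microglia-like cells of hippocampus, and 1 to 2 endothelial-like members past the fold. Except where the alternative's construction (depth, cells left out) sets the value, the cause was not tested.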

Other observations

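Relatives of the members outside the set had class distributions of their own. *Egr2* was at 13.9 CPM in cortical and 14.2 CPM in hippocampal microglia-like cells and at 16.8 and 17.3 CPM in macrophage-like cells, and no higher than 4.2 CPM in any other class described by library. *Batf*, an AP-1 partner known from immune cells, was highest in macrophage-like cells at 28.0 and 22.8 CPM, against 4.7 and 5.1 CPM in microglia-like cells. *Maf* was at similar levels in both classes (876 and 1001 CPM in microglia-like, 1098 and 1124 CPM in macrophage-like cells). *Jdp2*, which encodes a repressor of AP-1, was highest in pericyte-like cells of hippocampus (53.5 CPM) and in macrophage-like cells of cortex (48.9 CPM). *Fosl1* was at 0 to 0.3 CPM and *Egr4* at 0 to 0.3 CPM in every class. These are summed values with no test.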
